A study of Mus musculus with 4 samples.

Results

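The genes described are 9 complement components and receptors, of 32285 genes in the count matrices: C1qa, C1qb, C1qc, C3, Cfb, Cfp, Cr2, C3ar1 and C5ar1. They were chosen by name, and all 9 were found in both expression libraries. Both libraries held cells from subcutaneous MC38 colon carcinoma tumours of female C57BL/6 mice aged 12 to 16 weeks, taken 18 days after inoculation from 11 recipients per genotype. All recipients carried floxed Prdm1 alleles. The control recipients were Prdm1 f/f. The knockout recipients were Prdm1 f/f CD19cre, in which the Cre recombinase is driven by a B cell gene, so that the tumour cells and the other immune cells were not its target. Prdm1 encodes Blimp-1, the transcription factor that plasma cells need. Living B220+ cells and living CD138+ cells were sorted and combined, in a proportion not given in the sources used here. Each genotype gave 1 expression library and 1 library of B cell receptor contigs, so no comparison between genotypes below has a replicate or a test. All intervals are 95% intervals that cover counting error only.

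Complement is a set of plasma and cell surface proteins that tag targets and recruit phagocytes. C1q, made of 3 chains, starts the classical pathway on antibody-coated surfaces, while C3, factor B and properdin form and stabilise the convertase of the alternative pathway. The fragments C3a and C5a are sensed by the receptors C3ar1 and C5ar1 on myeloid cells, and C3 fragments on antigen bind the receptor encoded by Cr2 on B cells. Macrophages and dendritic cells, rather than the liver, make most C1q.

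Sequencing depth was given by 6976374 UMIs (unique molecular identifiers, each a counted RNA molecule) over 816 control barcodes, median 5851, and 5463434 UMIs over 897 knockout barcodes, median 3966. After filters and doublet removal 800 control and 862 knockout cells remained, and 3 barcodes occurred in both libraries. Prdm1 had 43 UMIs in 47 plasma-like cells of the control library, and the knockout library had no plasma-like cell among 862, which allows a share of up to 0.348%. In B-like cells Prdm1 had 1 UMI in 239 control cells and 16 UMIs in 287 knockout cells. Which exons the Cre removes is not given in the sources used here, and 5' tags can lie outside them, so these Prdm1 UMIs do not check the genotype. The sort and its mixture set the shares of the classes, and those shares are not compared.

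Cells were clustered without the complement genes, so that no member set a class. The macrophage-like class had 97 control and 46 knockout cells, and all 15 macrophage or monocyte markers were present in at least 10% of them. The other classes used here are plasmacytoid dendritic (pDC-like) cells, with 37 control and 38 knockout cells, basophil-like cells with 34 and 45, B-like cells with 239 and 287, and NK-like cells with 154 and 246. B-like cells formed 3 clusters, called by leading genes the Fcer2a cluster (174 and 100 cells), the Fcrl5 cluster (48 and 163) and the Serpina3f cluster (17 and 24). A cluster led by Gpnmb and Inhba (71 and 17 cells) has been called neutrophil-like. The neutrophil list was its highest, at a mean log2 of 2.74 relative to the other cells, against 1.09 for the macrophage or monocyte list. Most neutrophil markers were nevertheless found in few of its cells, so it did not meet the naming rule. Only 4 of its 15 neutrophil markers were present in at least 25% of its cells: S100a8 was found in 14.8% of them, Csf3r in 12.5% and Ly6g in 1.14%. Its markers Clec4d, Clec4e and Slfn4 were also found in 76.9%, 59.4% and 66.4% of macrophage-like cells, so it is called the Gpnmb-Inhba cluster. Within it, 4 cells, 2 per library, held 70 to 311 UMIs of S100a8 and S100a9, and those 4 had 13 C5ar1 UMIs and 0 of the other 8 genes. A cluster led by Ace and Ear2 (22 and 13 cells) also stayed unnamed.

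The C1q genes lie beside each other on mouse chromosome 4, within 18719 bases (build GRCm38.p6, RefSeq). C1qb is at 136880126 to 136886200, C1qc at 136889801 to 136892936 and C1qa at 136895916 to 136898844. The stretches between them are 3600 and 2979 bases long. Because the 3 genes were found in the same cells, the 250 bases before the start sites of C1qb (chr4:136886201-136886450, minus strand) and C1qc (chr4:136892915-136893164, minus strand) are shown from RefSeq, 5′ to 3′ along the gene. The start site that RefSeq's promoter entry uses for C1qc, 136892914, lies 22 bases inside the gene span above, and distances are counted from it. Promoter entries were matched for 7 of the 9 genes, and not for C1qa and Cfb. Capitals mark GAGGAA and AGGAAGT on either strand, which share the GGAA core bound by ETS factors such as the myeloid factor PU.1. These 2 motifs were picked after the sequences had been seen.
C1qb: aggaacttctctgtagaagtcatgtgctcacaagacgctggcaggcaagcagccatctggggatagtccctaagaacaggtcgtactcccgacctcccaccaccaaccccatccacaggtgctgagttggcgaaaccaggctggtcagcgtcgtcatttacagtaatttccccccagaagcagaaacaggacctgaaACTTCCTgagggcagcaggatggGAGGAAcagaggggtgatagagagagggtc
C1qc: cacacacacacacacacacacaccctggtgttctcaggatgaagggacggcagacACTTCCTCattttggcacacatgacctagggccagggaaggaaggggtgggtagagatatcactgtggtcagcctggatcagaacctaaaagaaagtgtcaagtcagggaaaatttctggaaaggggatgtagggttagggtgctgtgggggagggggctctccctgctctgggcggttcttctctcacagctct
C1qb held GAGGAA 30 bases before its start and AGGAAGT 53 bases before it, on the other strand. C1qc held both on the other strand, beginning 193 and 195 bases before the start and overlapping each other. GAGGAA was in 2 of the 7 promoters matched and in 23.3% of 32851 promoters of the same length. AGGAAGT was in 3 of the 7, C5ar1 being the other, and in 7.69% of all. These matches describe letters and not binding.

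Of the 9 genes, 8 had their UMIs mainly in myeloid cells, and Cr2 had them in B cells. In both libraries 8 of 9 genes were more than 2-fold higher per 1000000 UMIs in macrophage-like than in B-like cells, and Cr2 was the exception. Among all genes tested, 21.4% in the control library and 20.3% in the knockout library were that much higher. Levels are counts per 1000000 UMIs of a class (CPM). They are compared between classes and libraries for 1 gene, and not between genes, since 5' tags are not scaled by length.

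**Figure D1:**
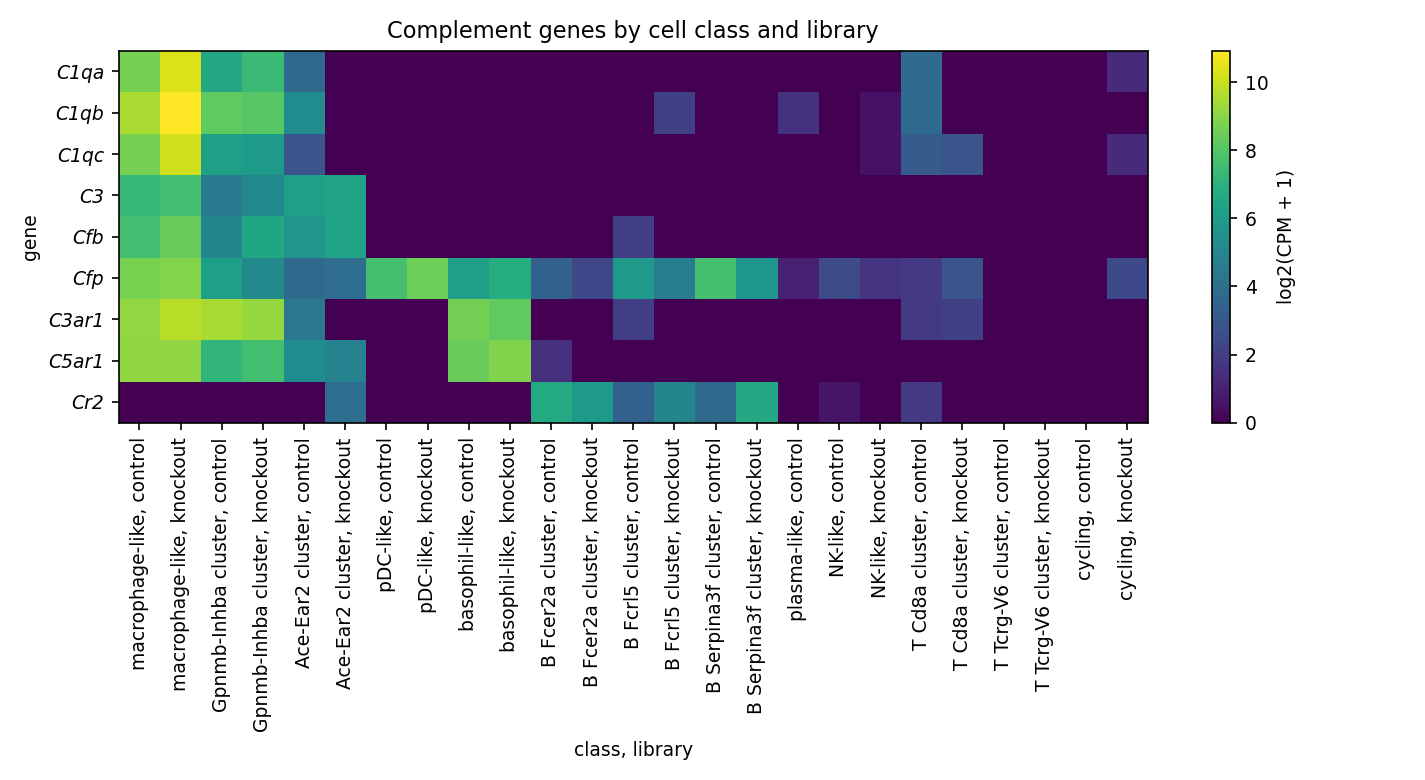
Level of the 9 genes, as log2(CPM + 1) in colour, in each cell class (columns, control beside knockout; classes under 13 cells and the Sema6d cluster are left out). The C1q genes, C3 and Cfb are bright in macrophage-like cells, C3ar1 and C5ar1 also in the Gpnmb-Inhba cluster and basophil-like cells, Cfp also in pDC-like cells, and Cr2 in B cell clusters.

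C1qa, C1qb and C1qc encode the 3 chains of C1q. In macrophage-like cells C1qa was at 407 CPM in the control library (interval 365 to 452) and 1296 CPM in the knockout library (1175 to 1426). C1qb was at 737 (680 to 797) and 1942 CPM (1793 to 2100). C1qc was at 413 (370 to 458) and 1138 CPM (1025 to 1261). For each chain the intervals of the libraries were far apart, and the knockout library was the higher. The ratio of knockout to control was 3.19 for C1qa (interval 2.76 to 3.69), 2.64 for C1qb (2.35 to 2.95) and 2.76 for C1qc (2.38 to 3.20).

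Next came the Gpnmb-Inhba cluster, where C1qb was at 302 CPM in the control (250 to 362) and 271 in the knockout library (170 to 411). In the knockout library 21 of those 22 UMIs were in 1 cell. The NK-like class, which should lack C1q, had 0 C1qb UMIs in the control library, a limit of 1.56 CPM, and 1 in the knockout library. A T cell cluster led by Cd8a had more: 13 C1q UMIs in 5 of 35 control cells, with C1qb at 13.2 CPM (4.28 to 30.7), and 2 C1q UMIs in 41 knockout cells. B-like cells had 0 C1qa and 0 C1qc UMIs in both libraries and 2 of C1qb. The 47 plasma-like cells had 2 C1qb UMIs and none of C1qa or C1qc, and pDC-like cells had none of the 3. Of all C1qa UMIs, 88.6% in the control library and 96.5% in the knockout library were in macrophage-like cells.

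C1q RNA was carried by a minority of the macrophage-like cells. Of the control cells 67 of 97 had no C1q UMI, and of the knockout cells 28 of 46. The 5 cells with the most held 63.8% of the C1q UMIs of the control class and 74.1% of the knockout class. The highest cell had 250 UMIs in the control library and 340 in the knockout library, and the fifth had 89 and 94. After each cell was thinned to 1500 UMIs, 23.9% of 92 control cells and 30.2% of 43 knockout cells had a UMI of any chain, against 30.9% and 39.1% unthinned. At that depth C1qb was seen in 20.7% (12.9 to 30.4) of the control and 30.2% (17.2 to 46.1) of the knockout class, intervals that overlap, and in 0 of 154 and 0 of 243 NK-like cells. The difference in level was thus larger than counting error, while a difference in the share of cells was not detectable at this depth. Counting error does not include which cells were captured, and with most C1q UMIs in a few cells that spread was not measured.

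**Figure D2:**
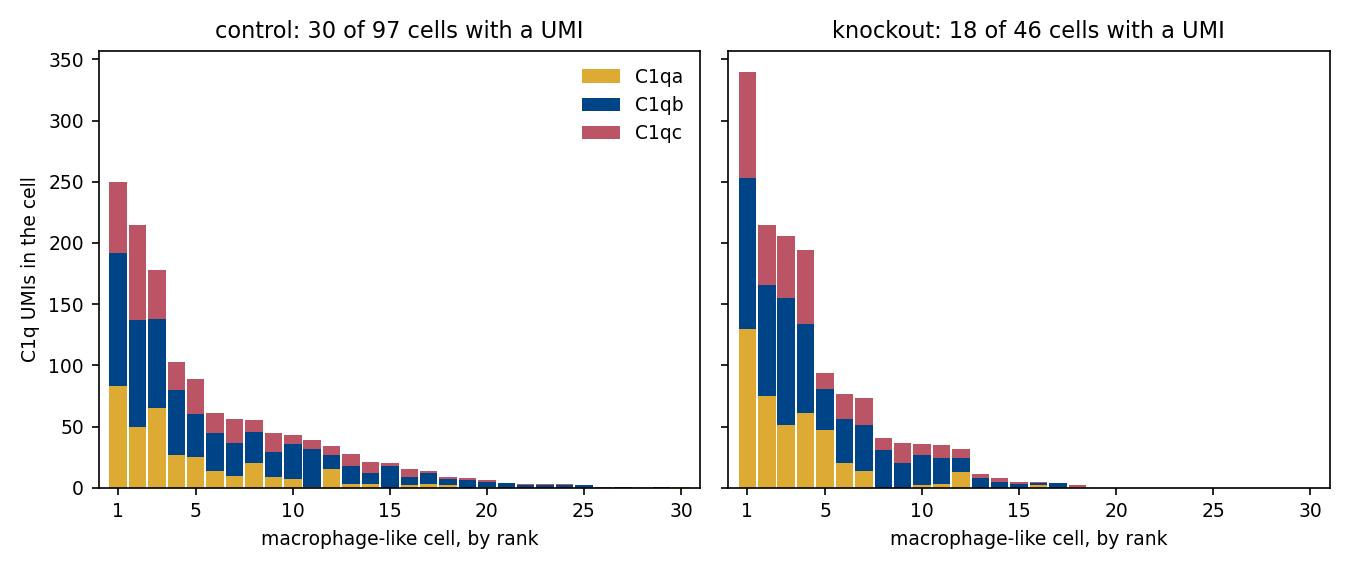
UMIs of C1qa, C1qb and C1qc (stacked) in each macrophage-like cell with at least 1, ranked within its library. A few cells hold most UMIs in both libraries, up to 250 in the control library and 340 in the knockout library, and most such cells show all 3 colours.

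The chains were found together. Of the thinned cells with any chain, 11 of 22 control and 7 of 13 knockout cells had all 3. C1qb gave 47.4% of the C1q UMIs in control macrophage-like cells (44.6 to 50.1) and 44.4% in knockout cells (41.8 to 47.0). C1qa gave 26.1% and 29.6%, and C1qc 26.5% and 26.0%. The Gpnmb-Inhba cluster of the control library had a larger part from C1qb, 64.1% of 181 UMIs (56.6 to 71.1), from 11 cells of which 5 held 87.1% of its C1qb UMIs. In the knockout library the part was 53.7% of 41 UMIs (37.4 to 69.3), from 2 cells.

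The macrophage-like class split at a finer resolution into 2 subclusters that were, again, built without complement genes. One was led by Pf4, Mmp12 and Ms4a7 (42 control and 23 knockout cells), the other by Dmkn, Cxcl10 and Vcan (54 and 23), and 1 control cell lay in neither. C1qb was at 1638 CPM (1505 to 1780) and 3840 CPM (3536 to 4164) in the Pf4 subcluster, and at 131 (101 to 168) and 246 CPM (177 to 332) in the other. The C1qb ratio was 2.34 (2.08 to 2.64) in the first and 1.88 (1.24 to 2.82) in the second. The C1qa ratio was 2.66 and 6.20, the latter from 10 and 22 UMIs, and the C1qc ratio was 2.41 and 2.29. The knockout level in the Dmkn subcluster was mostly that of single cells, as 1 cell held 36 of 42 C1qb UMIs, 20 of 22 of C1qa and 21 of 22 of C1qc. There C1qb was found in 10 of 54 control and 3 of 23 knockout cells, C1qa in 5 and 2 and C1qc in 7 and 2. Ms4a7, a macrophage membrane protein, was at 727 and 1101 CPM in the Pf4 subcluster and Ccr2, a monocyte chemokine receptor, at 644 and 374.

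B cell markers also differed between the libraries in macrophage-like cells. The 10 B cell markers summed to 126 CPM in the control class and 418 CPM in the knockout class, with 10 of 10 and 9 of 10 markers present. The B cell list was at 12333 CPM in control and 11564 CPM in knockout B-like cells. In NK-like cells it was at 329 and 382 CPM, with 5 and 9 markers present. Basophil-like cells had it at 384 and 298 CPM, with 3 and 2 markers, and the Gpnmb-Inhba cluster at 70.3 and 494 CPM, with 1 and 8. The knockout macrophage-like level was thus near that of some other classes outside B cells. Without the 1 control and 4 knockout cells that had 5 or more B cell marker UMIs, the ratios were 2.79 for C1qa, 2.59 for C1qb and 2.86 for C1qc. The summed macrophage or monocyte markers were at 25225 and 23396 CPM. Leaving out the cell with the most UMIs of each chain in each library gave ratios of 2.94, 2.60 and 2.73.

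C3 encodes the protein on which all pathways meet, and Cfb encodes factor B, the protease of the alternative pathway convertase. In macrophage-like cells C3 was at 157 CPM in the control (131 to 186) and 201 CPM in the knockout library (155 to 256). Cfb was at 201 (172 to 234) and 331 CPM (271 to 400). The ratio for C3 was 1.28 and its interval held 1 (0.937 to 1.74), and that for Cfb was 1.65 (1.28 to 2.11). C3 and Cfb were spread over more cells than C1q: 55 of 97 control and 27 of 46 knockout cells had a C3 UMI, with a median of 2 in those cells.

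The subclusters differed in C3. In the Pf4 subcluster C3 was at 197 CPM (153 to 250) in the control library and 125 (75.0 to 194) in the knockout library, a ratio of 0.632 (0.358 to 1.06). In the Dmkn subcluster it was at 135 (104 to 172) and 269 CPM (197 to 359), a ratio of 1.99 (1.34 to 2.95). The Cfb ratio was 1.17 (0.818 to 1.66) and 2.19 (1.52 to 3.15) in the same order, with 24 of the 56 knockout UMIs of the Dmkn subcluster in 1 cell. The difference between the subclusters' ratios was not tested.

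Outside macrophage-like cells, C3 was at 70.5 CPM and 83.2 CPM in the Ace-Ear2 cluster, from 11 and 6 UMIs, and Cfb at 51.3 and 83.2 CPM there, from 8 and 6 UMIs. The 7 conventional dendritic (cDC-like) cells had 3 control and 6 knockout Cfb UMIs, 116 and 169 CPM, in 1 cell of each library. C3 had no UMI in B-like, plasma-like, pDC-like, basophil-like or NK-like cells of either library. In NK-like cells that allows at most 1.56 CPM in the control library and 1.35 CPM in the knockout library.

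Cfp encodes properdin, which stabilises the alternative pathway convertase, and it was the member found in the most classes. In macrophage-like cells it was at 424 CPM (382 to 471) and 470 CPM (398 to 551), a ratio of 1.11 (0.910 to 1.34). In pDC-like cells it was at 209 CPM (160 to 269) in the control library and 368 CPM (289 to 462) in the knockout library. That ratio of 1.76 (1.23 to 2.51) rested on 1 knockout cell, which held 35 of the 74 UMIs. Without the highest cell of each library the ratio was 1.12 (0.722 to 1.74), and without the highest 5% of cells, 2 per library, 0.911 (0.553 to 1.48). Without the cells that had 5 or more B cell marker UMIs, which left 20 control and 32 knockout cells, it was 1.11 (0.663 to 1.88). Only 2 of the 10 B cell markers in control and 4 in knockout pDC-like cells had a UMI. Those UMIs lay in 36 of 37 control and 35 of 38 knockout cells. That step thus does not separate cells with B cell RNA from other pDC-like cells. The thinned shares of pDC-like cells with Cfp were 27.0% of 37 (13.8 to 44.1) and 17.1% of 35 (6.56 to 33.6), against 0.649% and 0.823% of NK-like cells.

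In B-like cells Cfp was at 43.2 CPM in the control (30.9 to 58.9) and 22.9 CPM in the knockout library (14.5 to 34.3), a ratio of 0.529 (0.302 to 0.904). The Fcrl5 cluster was at 59.3 and 24.2 CPM, from 19 and 15 UMIs, a ratio of 0.408 (0.193 to 0.847). The Fcer2a cluster was at 9.49 and 3.98 CPM, from 5 and 1 UMIs. In the control Serpina3f cluster 12 of 16 UMIs were in 1 cell. Without the highest cell of each library the B-like ratio was 0.620 and its interval held 1 (0.327 to 1.15). NK-like cells had 9 and 5 UMIs, 4.67 and 2.25 CPM, a ratio of 0.482 (0.127 to 1.60), and the control plasma-like cells had 1 UMI.

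C3ar1 and C5ar1 encode the receptors for the anaphylatoxins C3a and C5a. In macrophage-like cells C3ar1 was at 562 CPM (513 to 615) in the control library and 854 CPM (756 to 960) in the knockout library, a ratio of 1.52 (1.304 to 1.76). C5ar1 was at 558 CPM (508 to 610) and 560 CPM (481 to 648), a ratio of 1.004 (0.841 to 1.19). The C3ar1 ratio was above 1 in both subclusters, at 1.38 (1.13 to 1.69) in the Pf4 and 1.57 (1.24 to 1.98) in the Dmkn subcluster. The C5ar1 ratios were 0.933 and 0.949.

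The receptors differed in the Gpnmb-Inhba cluster. C3ar1 was at 713 CPM (631 to 803) in the control library and 592 CPM (437 to 785) in the knockout library. That was above the macrophage-like level in the control library. In the knockout library it was below that level, but the intervals overlapped, and its 48 UMIs lay in 9 of 17 cells. C5ar1 was at 143 CPM (108 to 186) and 197 CPM (113 to 321), below its macrophage-like level in both. In thinned control cells of the cluster, 29 of 68 had C3ar1 only, 6 had C5ar1 only and 6 had both. Of the thinned control macrophage-like cells, 27 of 92 had both, 18 C3ar1 only and 20 C5ar1 only.

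Basophil-like cells had both receptors and no C1q, C3 or Cfb UMI. C3ar1 was at 402 CPM (293 to 538) in the control library and 306 CPM (218 to 416) in the knockout library, and C5ar1 at 348 (248 to 476) and 458 CPM (350 to 590). The ratios were 0.760 (0.484 to 1.19) and 1.32 (0.865 to 2.02), both with 1 in the interval. At 1500 UMIs, C3ar1 was seen in 41.9% of 31 control cells and C5ar1 in 29.0%, and in 35.7% and 47.6% of 42 knockout cells. In each library 4 members had at least 10 UMIs over basophil-like and B-like cells together, and Cr2, 1 of these, had none in basophil-like cells. Of the 4, 2 in the control library and 3 in the knockout library were more than 2-fold above B-like cells, where 17.3% and 17.6% of all genes were. B-like, plasma-like, pDC-like and NK-like cells had at most 1 UMI of either receptor in a library.

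**Figure D3:**
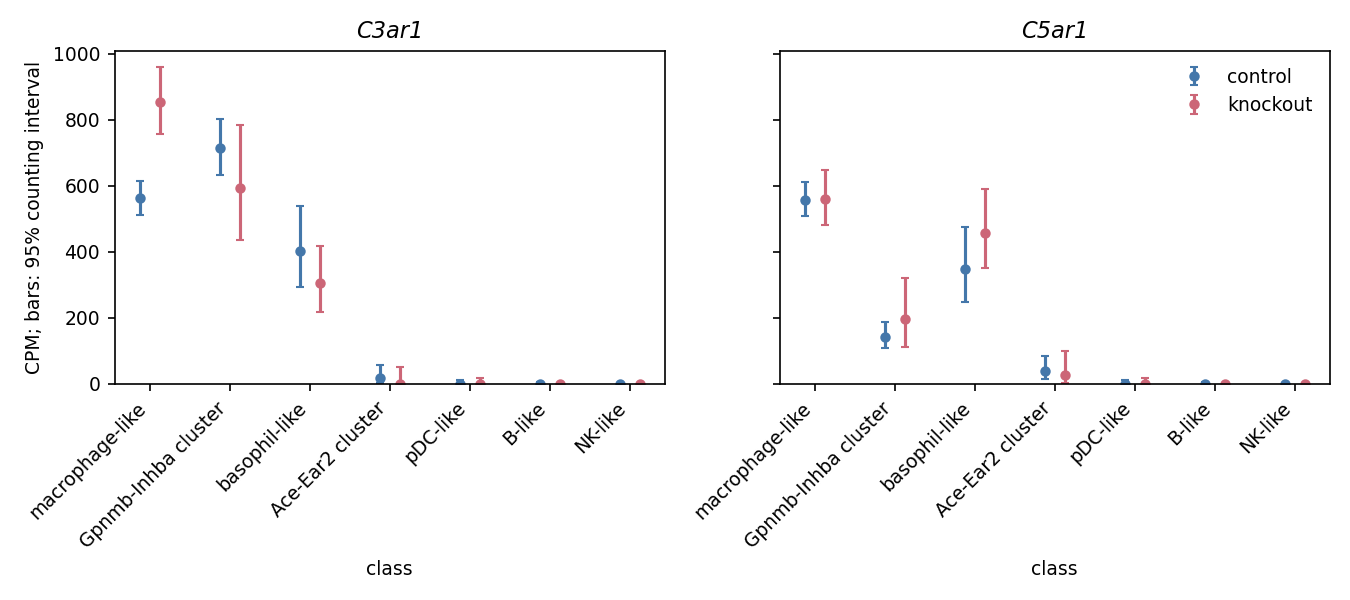
CPM of C3ar1 (left) and C5ar1 (right) by class in the control and knockout libraries; points are class sums and bars 95% counting intervals. C3ar1 in macrophage-like cells is at 562 and 854 CPM while C5ar1 is at 558 and 560, and both receptors are near 0 in pDC-like, B-like and NK-like cells.

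Cr2 encodes complement receptor 2 (CD21) and, in the mouse, also complement receptor 1 (CD35), which these counts cannot separate. In B-like cells it was at 62.7 CPM in the control (47.6 to 81.1) and 46.7 CPM in the knockout library (34.3 to 62.1), a ratio of 0.745 with 1 in its interval (0.496 to 1.11). B-like cells held 58 of 60 control and 47 of 48 knockout UMIs. One knockout cell of the Serpina3f cluster held 12 of those 47, and without the highest cell of each library the ratio was 0.589 (0.374 to 0.917). Plasma-like cells had 0 UMIs, a limit of 3.01 CPM, and macrophage-like cells had 0 in both libraries.

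Among the B cell clusters, the Fcer2a cluster had Cr2 at 103 CPM (77.0 to 134) from 54 UMIs in the control library and at 59.7 CPM (33.4 to 98.4) from 15 UMIs in the knockout library, a ratio of 0.582 (0.305 to 1.05). The Fcrl5 cluster was at 9.36 CPM from 3 UMIs and 30.6 CPM from 19 UMIs, a ratio of 3.27 (0.963 to 17.3). Both ratios had 1 in the interval. The Serpina3f cluster had 1 control UMI, 12.9 CPM, and 13 knockout UMIs, 96.6 CPM, of which 12 were in 1 cell. Fcer2a encodes CD23, which follicular B cells carry, and Fcrl5 an Fc receptor-like protein of marginal zone, B1 and memory cells. Thinned B-like cells with a Cr2 UMI had more Fcer2a than those without: 754 against 301 CPM in the control library and 299 against 114 CPM in the knockout library.

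The heavy chain isotype came from the receptor contigs, which the clustering did not use. IgM B-like cells had Cr2 at 63.7 CPM in the control (60 cells, 37.7 to 101) and 65.6 CPM in the knockout library (229 cells, 47.6 to 88.0). The 35 B-like cells with an IgG or IgA heavy chain had 0 Cr2 UMIs, a limit of 8.96 CPM, although they were deeper, with a median of 8010 UMIs against 2803 in IgM cells. Within the Fcer2a cluster IgM cells were at 151 CPM (34 control cells, 88.1 to 242) and 56.3 CPM (83 knockout cells, 29.1 to 98.4). A heavy chain was lacking for 151 of the 239 control B-like cells and for 14 of the 287 from the knockout, and those without one were at 72.6 CPM in the control library.

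**Figure D4:**
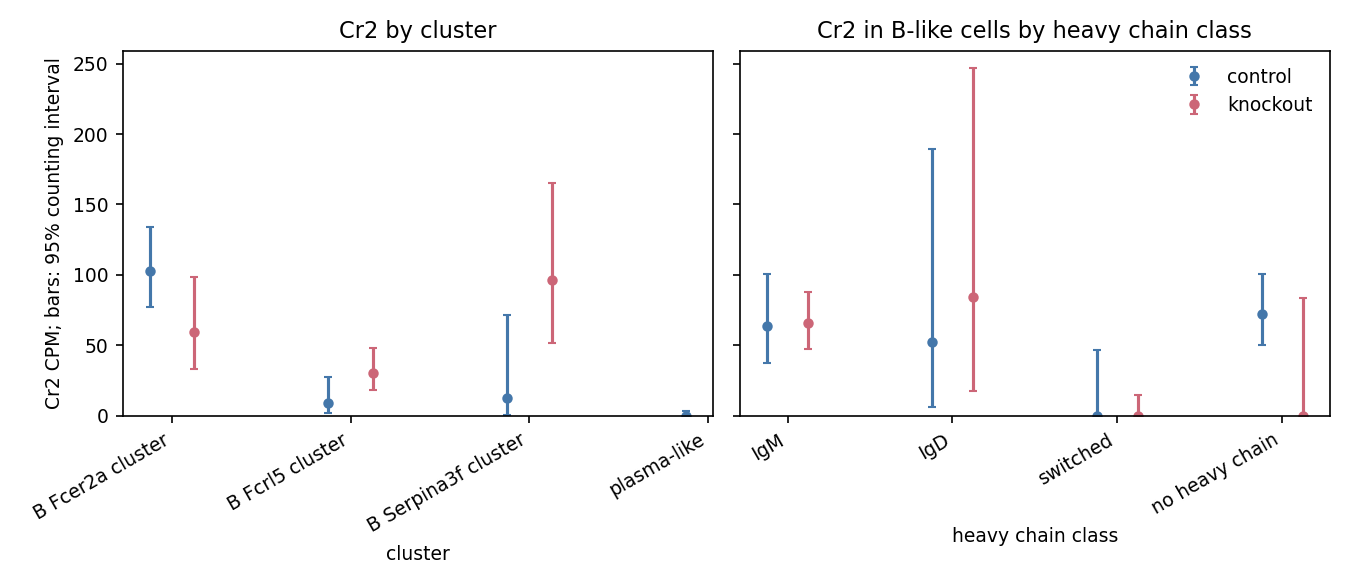
Cr2 CPM by B cell cluster and in plasma-like cells (left) and in B-like cells by heavy chain class (right) in the control and knockout libraries; points are sums over cells and bars 95% counting intervals. The Fcer2a cluster is highest in the control library at 103 CPM, and cells with a switched heavy chain are at 0 in both libraries.

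CD81, a membrane protein, is a partner of CD21 on B cells. In B-like cells Cd81 was at 361 and 299 CPM, a ratio of 0.828 (0.707 to 0.971).

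Against the background of all genes with at least 10 UMIs in a class, 3 of 8 members measured in macrophage-like cells were more than 2-fold higher in the knockout library, where 5.62% of 7259 genes were, and 0 were lower by that much (8.31%). The 3 were the C1q chains. The median log2 ratio was 0.66 over the 8 members and −0.004 over all genes. The C1q chains were found together in a minority of cells, so they are not 3 separate observations. The other 5 members were within 2-fold, with log2 ratios from 0.006 (C5ar1) to 0.72 (Cfb). In the Fcrl5 cluster Cr2 was the 1 member higher past 2-fold (8.87% of genes) and Cfp the 1 lower (6.42%). In NK-like cells Cfp was lower past 2-fold (3.09%), from 9 UMIs in 3 control cells and 5 UMIs in 5 knockout cells, with 1 in the interval of its ratio. No member passed 2-fold in pDC-like (1 measured, 13.3% of genes either way), basophil-like (3 measured, 14.8%), B-like (2 measured, 9.67%) or Fcer2a cluster cells (1 measured, 14.6%).

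**Figure D5:**
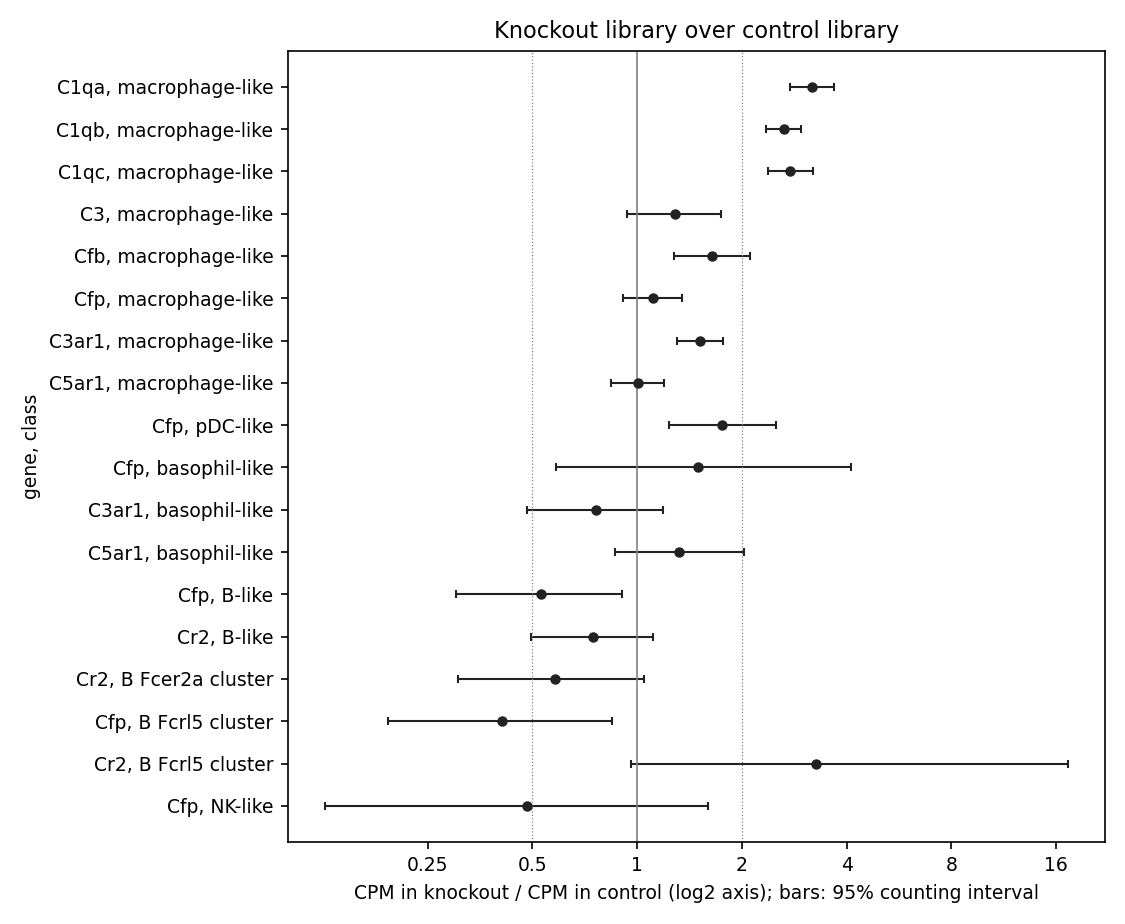
CPM in the knockout over CPM in the control library for each member and class with enough cells and UMIs, on a log2 axis; bars are 95% counting intervals and dotted lines mark 2-fold. The 3 C1q genes in macrophage-like cells lie between 2.64 and 3.19 with intervals above 2, and most other intervals reach or cross 1.

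Of 41 other complement genes, 18 had no UMI in either library, 18 had 1 to 49 and 5 had at least 50. The components of the classical, lectin and terminal pathways were nearly all in the first 2 groups: none of 16 classical or lectin genes and none of 7 terminal genes reached 50 UMIs. Genes with a close copy, such as C4a and C4b or Cd59a and Cd59b, are uncertain, since reads may fit both. The 5 genes above 50 were 2 regulators and 3 integrin chains. Cd55, which speeds the decay of the convertases, was highest in the Fcer2a cluster, at 401 CPM in the control library and 445 in the knockout library. In the Fcrl5 cluster Cd55 was at 81.1 CPM (53.0 to 119) and 153 CPM (124 to 187), a ratio of 1.89 (1.21 to 3.04). Cr1l encodes Crry, the widely expressed mouse regulator of C3 cleavage, and was found in all the classes above, at 38.0 and 30.9 CPM in macrophage-like and 88.6 and 109 CPM in NK-like cells.

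Itgam and Itgb2 encode the chains of complement receptor 3. Itgam was highest in macrophage-like cells, at 447 and 479 CPM, and Itgb2 likewise, at 598 and 585 CPM, with ratios of 1.07 and 0.977. Control plasma-like cells had 97 Itgam UMIs in 28 of 47 cells, 97.3 CPM (78.9 to 119), while B-like cells had 7.57 and 10.9 CPM. Itgax, the alpha chain of complement receptor 4, was highest in a cluster led by Tnfsf10, Sema6d and Itga1, at 204 CPM in 52 knockout cells, and at 66.3 and 119 CPM in pDC-like cells.

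Over the 23 class and library sums with at least 20 cells, the members were compared by Pearson's r. These correlations describe points that share libraries, and each gene's points are mostly near 0 outside 1 or a few classes. C1qa correlated with C1qc at r = 0.98, C3 with Cfb at 0.98 and C3ar1 with C5ar1 at 0.97, while Cr2 was at −0.24 with C1qa and Cfp at 0.47. Among 8372 other genes, those most like C1qa were Mefv (0.97), Ms4a7 (0.96) and Msr1 (0.95), and those most like C1qb were Cxcl16, Mefv and Msr1. Ms4a7, Mefv and Slfn4 were most like C1qc. C3 was most like Chil3 (0.99), Csf1r and Trem2, and Cfb most like Fn1 (0.99), Trem2 and Clec5a. Cfp was most like Gsn (0.93), Pirb and Rassf4. C3ar1 was most like Slc7a8 (0.98), Cxcl2 and Tarm1, and C5ar1 most like Tarm1 (0.98), Cxcl2 and Ccl9. Cr2 was most like Cxcr5 (0.94), a chemokine receptor of follicular B cells, followed by the antibody gene segments Igkv12-41 and Igkv2-109.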

How the data were processed

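The files were 5' single-cell expression matrices of UMI counts and tables of B cell receptor contigs with UMI counts. The submitters' processing notes name Cell Ranger 6.0.0 and the builds GRCm38 and mm10; the deposited counts were made by the authors, who left them unnormalized. Barcodes under 200 genes or over 10% mitochondrial UMIs, Scrublet doublets (5 control, 6 knockout) and 6 knockout barcodes with more than 1 heavy chain were removed. Both libraries were clustered together with scanpy 1.11.5 (2000 variable genes, 30 principal components, 15 neighbours, Leiden resolution 1, seed 1) without immunoglobulin and complement genes, giving 17 clusters, 3 of them unnamed. Names came from 14 marker lists; the members, lists and comparisons were chosen with earlier results of these data known, and the naming rule was set after the clusters were seen: a best list at a mean log2 of at least 1, at least 3 markers in 10% of cells, most of the list in 25%, and a marker among the 25 leading genes. Counts were summed per class and library and given as CPM with exact Poisson intervals, ratios with exact conditional binomial intervals, and shares with Clopper-Pearson intervals (95%); a count of 0 allows 3. Ratios needed 20 cells in both libraries and 10 UMIs. All 9 members are named; other complement genes are named from 50 UMIs, and the 3 most alike genes from 100 UMIs on log2(CPM + 1). The interval code was tested on simulated data. With 1 library per genotype, no p-value was computed. The 20 other settings listed at the start were run, and 3 more were added after seeing the data. Some results are not reported here.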

Additional observations from a re-analysis of the deposited data

How the results depend on the processing

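With 1 library per genotype and no replicates, the intervals hold counting error only, and depth limits genes with few UMIs such as Cr2. No paired analysis was possible because each genotype has 1 library. Of 152 recomputed ratios 143 stayed within the main interval, as did 182 of 208 levels. At Leiden resolution 0.5 the Gpnmb-Inhba cluster joined the macrophage-like class and had no value of its own; CPM in control and knockout cells became 309 and 1071 for C1qa, 601 and 1607 for C1qb, 306 and 922 for C1qc and 313 and 383 for Cfp, and in control cells 114 for C3, 148 for Cfb and 428 for C5ar1. As a mean over cells, C1qa was 497 and 1487, C3ar1 626 and 1009, C1qb 932 in control and C3 257 in knockout cells, and the C1qb ratio was 2.04. Without the cell with the most UMIs of the gene, C1qa was 313 and 920, C1qb 618 and 1608, C1qc 328 and 895, Cfb 263 in knockout cells and Cfp 205 in knockout pDC-like cells, where the ratio fell to 1.12. With no barcode filter C1qb was 671 in control cells. After the data were seen, 3 settings were added. Leaving out cells with 5 or more B cell marker UMIs kept each ratio of the macrophage-like and basophil-like classes within its interval. It moved Cfp in pDC-like cells, where few of those markers were present, to 1.11. Leaving out the 5% of cells with the most UMIs of the gene gave ratios of 4.30 for C1qa, 3.18 for C1qb, 3.86 for C1qc and 0.882 for Cfp in macrophage-like cells, 0.377 for Cr2 in B-like cells, and turned Cfp in pDC-like cells to 0.911. For Cr2 that step took 12 of 44 control and 15 of 28 knockout cells with a UMI, so by its construction it cut the knockout library harder, and it gives no value where under 10 UMIs were left. The shares of cells with a UMI moved past their interval in 15 of 32 recomputations, where cells were not thinned or were thinned to 1000 UMIs.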
